A study of Mus musculus with 12 samples.

Results

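Genes that mark subtypes of mature cortical interneurons were examined for H3K4me3, a histone modification of promoters, in the embryonic mouse forebrain. They were the 10 genes Sst, Pvalb, Vip, Npy, Calb1, Calb2, Reln, Htr3a, Cck and Nos1, out of 21951 protein-coding genes of the annotation. They were chosen by name, with earlier results of these data known. A gene was counted as marked in a region when at least 1 H3K4me3 peak of that region lay within 5 kb of any of its annotated transcription start sites (TSSs) on GRCm38. H3K4me3 was profiled by CUT&Tag, in which an antibody brings a transposase to the modified chromatin, in medial, lateral and caudal ganglionic eminence (MGE, LGE and CGE) and cortex (CTX) of wild-type C57BL/6J embryos at E12.5 (embryonic day). The age is the one the study gives for its CUT&Tag experiments, since the protocol shared by the sample labels names E14.5 embryos as well. Each region had 2 replicates, sequenced as 12 libraries in all (3 of MGE, 2 of LGE, 4 of CGE and 3 of CTX), and tissue was pooled from several embryos. The protocol in the labels also states that nuclei of the regions were pooled in equal numbers, without stating how the regions were then kept apart. The replicates were merged before peaks were called, so every region is 1 list of peaks, no value below has a replicate error, and no difference between regions was tested.

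Median peak width was 563 bp in the MGE list (25339 peaks), 1168 bp in that of LGE (17284), 1240 bp in that of CGE (17752) and 701 bp in that of CTX (21442). By the read totals stated in the study MGE was the shallowest region, CGE was deeper than LGE, and CTX, where the total of one replicate is misprinted, was about as deep as LGE or deeper. Read counts under single peaks were not analysed here, so a gene without a peak is 1 at which none was called at the depth of that list. The lists also differed in the significance of their peaks. The median −log10 q, the peak caller's measure of significance, was 5.19 (MGE), 40.0 (LGE), 79.3 (CGE) and 8.57 (CTX), so peaks were compared as ranks within their own list.

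Cortical interneurons are GABAergic cells that are born in the GEs and migrate into the cortex. Most cells expressing Sst or Pvalb arise in the MGE and most cells expressing Vip or Htr3a arise in the CGE, whereas Npy and Reln are found in cells of both sources. Reln and Calb2 are also expressed by Cajal-Retzius cells, early neurons of the cortical surface. The proteins that name these subtypes mostly appear long after the cells have left the cell cycle. H3K4me3 is deposited around the TSSs of active genes and also at many inactive promoters that are rich in CpG dinucleotides, so its presence is not a measure of transcription.

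The sequences just upstream of the TSSs are shown because the 10 genes differed widely in CpG content there and in where along the gene the peak lay. They are those of the 2 genes marked in all 4 regions, the genes marked in 1 or 2 regions and the unmarked gene Vip. Each line holds 100 bases of the RefSeq GRCm38.p6 genome, written 5′ to 3′ on the strand of the gene and ending at the base before the TSS, with CpG dinucleotides in capitals. For Pvalb and Nos1 the internal TSS that lay under the peaks is given as well.
Reln, 5′ end (chr5:22344703-22344802, minus strand): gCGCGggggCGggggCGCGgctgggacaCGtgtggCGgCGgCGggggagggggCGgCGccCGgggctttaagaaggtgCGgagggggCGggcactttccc
Calb1, 5′ end (chr4:15881164-15881263, plus strand): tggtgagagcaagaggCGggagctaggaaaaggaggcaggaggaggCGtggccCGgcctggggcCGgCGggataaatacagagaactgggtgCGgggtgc
Pvalb, 5′ end (chr15:78206401-78206500, minus strand): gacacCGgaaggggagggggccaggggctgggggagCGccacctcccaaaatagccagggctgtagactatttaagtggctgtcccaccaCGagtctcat
Pvalb, internal TSS (chr15:78204238-78204337, minus strand): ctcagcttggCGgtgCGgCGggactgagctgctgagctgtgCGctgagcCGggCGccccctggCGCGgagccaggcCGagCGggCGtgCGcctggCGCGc
Calb2, 5′ end (chr8:110168211-110168310, minus strand): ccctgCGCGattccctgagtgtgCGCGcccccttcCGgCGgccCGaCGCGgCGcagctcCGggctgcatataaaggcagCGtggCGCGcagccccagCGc
Cck, 5′ end (chr9:121495695-121495794, minus strand): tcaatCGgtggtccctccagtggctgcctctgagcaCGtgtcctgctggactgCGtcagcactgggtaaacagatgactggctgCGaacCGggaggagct
Nos1, 5′ end (chr5:117780932-117781031, plus strand): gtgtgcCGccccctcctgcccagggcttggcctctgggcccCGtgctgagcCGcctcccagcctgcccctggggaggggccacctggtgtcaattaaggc
Nos1, internal TSS (chr5:117841750-117841849, plus strand): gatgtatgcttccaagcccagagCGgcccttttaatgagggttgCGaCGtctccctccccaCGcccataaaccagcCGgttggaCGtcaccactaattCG
Htr3a, 5′ end (chr9:48911100-48911199, minus strand): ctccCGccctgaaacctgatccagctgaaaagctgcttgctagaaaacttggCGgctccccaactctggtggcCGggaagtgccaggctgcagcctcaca
Sst, 5′ end (chr16:23890959-23891058, minus strand): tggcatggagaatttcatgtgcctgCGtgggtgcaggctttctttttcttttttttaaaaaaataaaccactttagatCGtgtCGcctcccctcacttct
Vip, 5′ end (chr10:5639118-5639217, plus strand): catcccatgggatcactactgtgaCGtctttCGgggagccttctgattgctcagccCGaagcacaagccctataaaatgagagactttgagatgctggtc
The stretch of Calb2 holds 15 CpGs, that of Reln 14, that of Calb1 6 and that of Cck 5. Those of Vip, Htr3a and the Sst, Pvalb and Nos1 5′ ends hold 3 each. The internal TSS of Pvalb is preceded by 14 CpGs and that of Nos1 by 7.

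The CGE list marked 8 of the 10 genes (80.0%), the LGE list 7 (70.0%), the MGE list 4 (40.0%) and the CTX list 3 (30.0%). The corresponding shares of all protein-coding genes were 65.0% (MGE), 64.2% (LGE), 64.6% (CGE) and 63.8% (CTX). The markers were thus below the genome-wide share in MGE and CTX and above it in LGE and CGE, in a set of 10 genes in which 1 gene is 10 percentage points. The direction in LGE and CGE turned under some windows and not under others. With peaks counted only in the 2 kb upstream of a TSS, 6 genes were marked in LGE and 6 in CGE, against 60.3% and 60.9% of protein-coding genes. With the gene 5′ end alone 6 were marked in LGE, against 61.6%, and 7 in CGE, against 62.0%. With a peak over the TSS itself 6 were marked in each, against 59.0% and 59.8%. With a peak over a curated RefSeq start 5 were marked in LGE and 6 in CGE. The matching share of protein-coding genes was not computed. Reln and Calb1 were marked in all 4 regions, Npy in the 3 GEs, Pvalb, Calb2, Cck and Nos1 in LGE and CGE, Htr3a in MGE and CTX, Sst in CGE alone and Vip in none. The share of protein-coding genes with the presence of Npy was 1.12%, with that of Sst 0.396% and with that of Htr3a 0.405%. Presence in LGE and CGE alone was found for 135 of the 21951 protein-coding genes (0.615%, Wilson 95% interval 0.52 to 0.727%, which covers counting error only) and presence in all 4 lists for 13463 (61.3%).

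**Figure D1:**
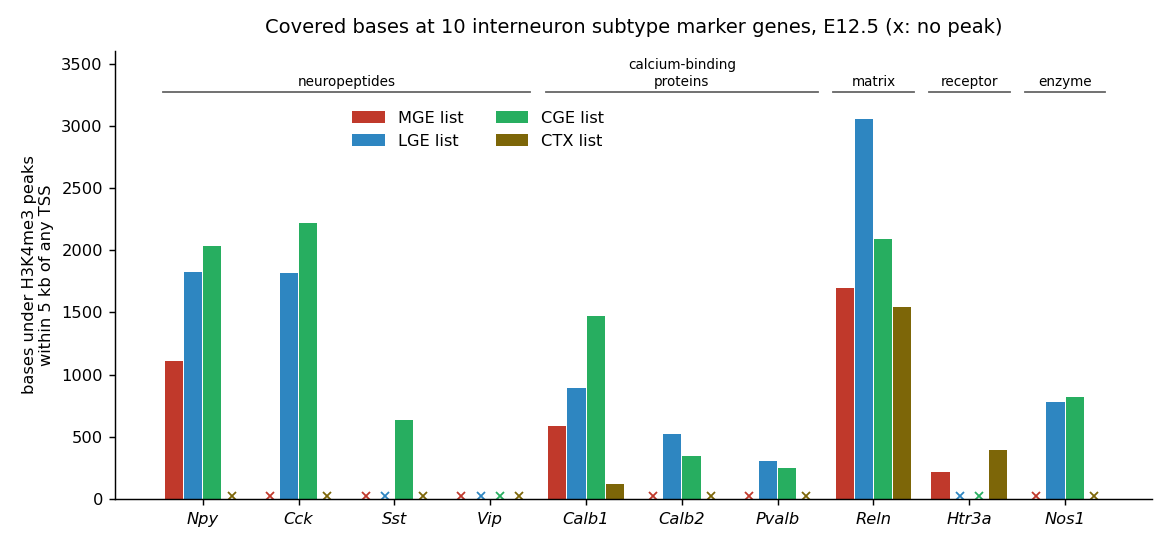
Covered bases, those under peaks within 5 kb of a TSS (y axis, bases), for each of the 10 marker genes (x axis, grouped by the kind of protein) in the MGE, LGE, CGE and CTX lists (bars, 1 merged list each, no replicate error), with crosses where no peak was called. Reln is covered in every list, from 1542 bases in CTX to 3056 in LGE, and Vip in none.

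For each gene and list, the covered bases are those under peaks within the 5 kb windows, and the percentile is the rank of that value among all protein-coding genes of the same list. Unmarked genes share the lowest rank, at percentile 17.5 (MGE), 17.9 (LGE), 17.7 (CGE) and 18.1 (CTX), so a marked gene of small coverage still stands well above it. The neuropeptides ranged from marked in the 3 GEs to unmarked. Npy encodes neuropeptide Y, a peptide transmitter of several interneuron subtypes, and lies at chr6:49822710-49829507 on the plus strand. Its covered bases were 1111 (MGE), 1827 (LGE), 2032 (CGE) and 0 (CTX). These values put Npy at percentile 70.9 of protein-coding genes in MGE, 82.0 in LGE and 84.1 in CGE. In LGE and CGE a single peak ran from upstream of the TSS into the gene body (chr6:49822184-49824010 and chr6:49822106-49824137), whereas MGE had 2 peaks, of 724 bp over the TSS and of 387 bp in the gene body. All 1111 bases of the MGE peaks lay within the CGE peak. The MGE value depended on how peaks were taken. It was 724 bases at a −log10 q of at least 2 and with lists of equal length, and 1853, above that of LGE, with peaks less than 1 kb apart joined. In CTX the nearest peak to an Npy TSS was 287 kb away.

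Cck encodes cholecystokinin, the peptide of a class of basket cells, and lies at chr9:121489824-121495694 on the minus strand with 6 annotated TSSs. It had 1819 covered bases in LGE, 2217 in CGE and 0 in MGE and CTX. The corresponding percentiles were 81.9 in LGE and 87.4 in CGE. Cck therefore combined broad coverage in LGE and CGE with no call in the other regions, where the nearest peaks lay 29.3 kb (MGE) and 59.9 kb (CTX) away. The LGE peak (chr9:121494128-121495946) spanned 5 of the 6 TSSs and the CGE peak (chr9:121493515-121495731) all 6, and they shared 1604 bases, 88.2% of the LGE and 72.4% of the CGE peak.

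Sst encodes somatostatin, the peptide that names a dendrite-targeting class from the MGE, and lies at chr16:23889573-23890958 on the minus strand. It had 638 covered bases in CGE (percentile 37.9) and 0 in MGE, LGE and CTX. The nearest peaks to its TSS were 57.8 kb away in MGE and 91.4 kb away in LGE and CTX. The gene named for an MGE-derived class was hence marked in CGE and not in the MGE list, that of the shallowest region. The CGE peak was of low rank, at percentile 14.6 of −log10 q in its list. The peak (chr16:23890305-23890942) began 16 bp inside the GENCODE TSS and covered 138 coding bases of the first exon and 302 bases of intron. The call was therefore lost with 2 kb upstream only and with a peak over the GENCODE TSS itself, but the peak covered the start of the curated RefSeq transcript, at position 23890844. A cyclic AMP response element (CRE, TGACGTCA), the site by which this promoter responds to cyclic AMP, was found 48 to 41 bases before that RefSeq start and within the peak, and is shown here in capitals in 30 bases on the strand of the gene.
Sst, around the CRE (chr16:23890874-23890903, minus strand): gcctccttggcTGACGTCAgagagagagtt
The CRE letters were found in 2.43% of 21938 promoters, searched on both strands from 250 bases before to 50 bases after the GENCODE gene 5′ end. The Sst CRE lies further inside the gene than that window reaches, so it is not counted in this share.

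Vip encodes vasoactive intestinal peptide, the marker of interneurons that inhibit other interneurons, and lies at chr10:5639218-5647617 on the plus strand. It was the only 1 of the 10 genes without a peak in any list. The nearest peaks were 88.3 kb (MGE), 88.2 kb (LGE), 88.3 kb (CGE) and 88.4 kb (CTX). Absence from all 4 lists was common among protein-coding genes (7051 genes, 32.1%). The TATA box letters TATAAA stood 30 to 25 bases before the Vip TSS, and were found in 12.6% of promoters.

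Among the calcium-binding proteins, Calb1 (calbindin, chr4:15881264-15908064, plus strand) was marked in all 4 lists. Its covered bases were 584 (MGE), 889 (LGE), 1470 (CGE) and 122 (CTX). The percentiles were 44.4 (MGE), 44.0 (LGE), 66.6 (CGE) and 36.2 (CTX). Coverage of Calb1 thus ranked highest in CGE and lowest in CTX, where the 122 bp peak (chr4:15881237-15881358) was as narrow as the narrowest of the list. The MGE peak (chr4:15881290-15881873) began 24 bp downstream of its nearest TSS, whereas those of LGE, CGE and CTX lay over the TSS. The CTX call of Calb1 was lost at a −log10 q of at least 2, with lists of equal length and at a common minimum width of 243 bp. Its MGE call was lost with 2 kb upstream only and with a peak over the TSS itself or over a curated RefSeq start. All MGE bases were contained in the LGE and CGE peaks.

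Calb2 (calretinin, chr8:110137502-110168210, minus strand) is expressed in many Vip interneurons. It had 518 covered bases in LGE (percentile 37.7), 346 in CGE (percentile 36.0) and 0 in MGE and CTX. The CGE bases lay wholly within the LGE peak (chr8:110167675-110168192), and neither peak reached the TSS, that of CGE beginning 52 bp and that of LGE 14 bp inside it. Both calls were therefore lost with 2 kb upstream only, with a peak over the TSS itself and with a peak over a curated RefSeq start. The nearest peaks were 31.5 kb away in MGE and 31.7 kb in CTX.

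Pvalb (parvalbumin, chr15:78191114-78206400, minus strand) marks fast-spiking interneurons. It had 307 covered bases in LGE (percentile 36.2), 246 in CGE (percentile 35.5) and 0 in MGE and CTX. These were the smallest peaks of the genes marked in LGE and CGE, and they did not lie at the 5′ end of the gene. Among marked protein-coding genes alone, Pvalb stood at percentile 0.752 in LGE and 0.236 in CGE. The peaks covered an internal TSS at position 78204237, 2.16 kb downstream of the gene 5′ end, which is also a curated RefSeq start of Pvalb. The CGE peak (chr15:78204064-78204309) lay wholly within the LGE peak (chr15:78204051-78204357). The nearest peaks were 22.2 kb away in MGE and 29.7 kb in CTX.

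**Figure D2:**
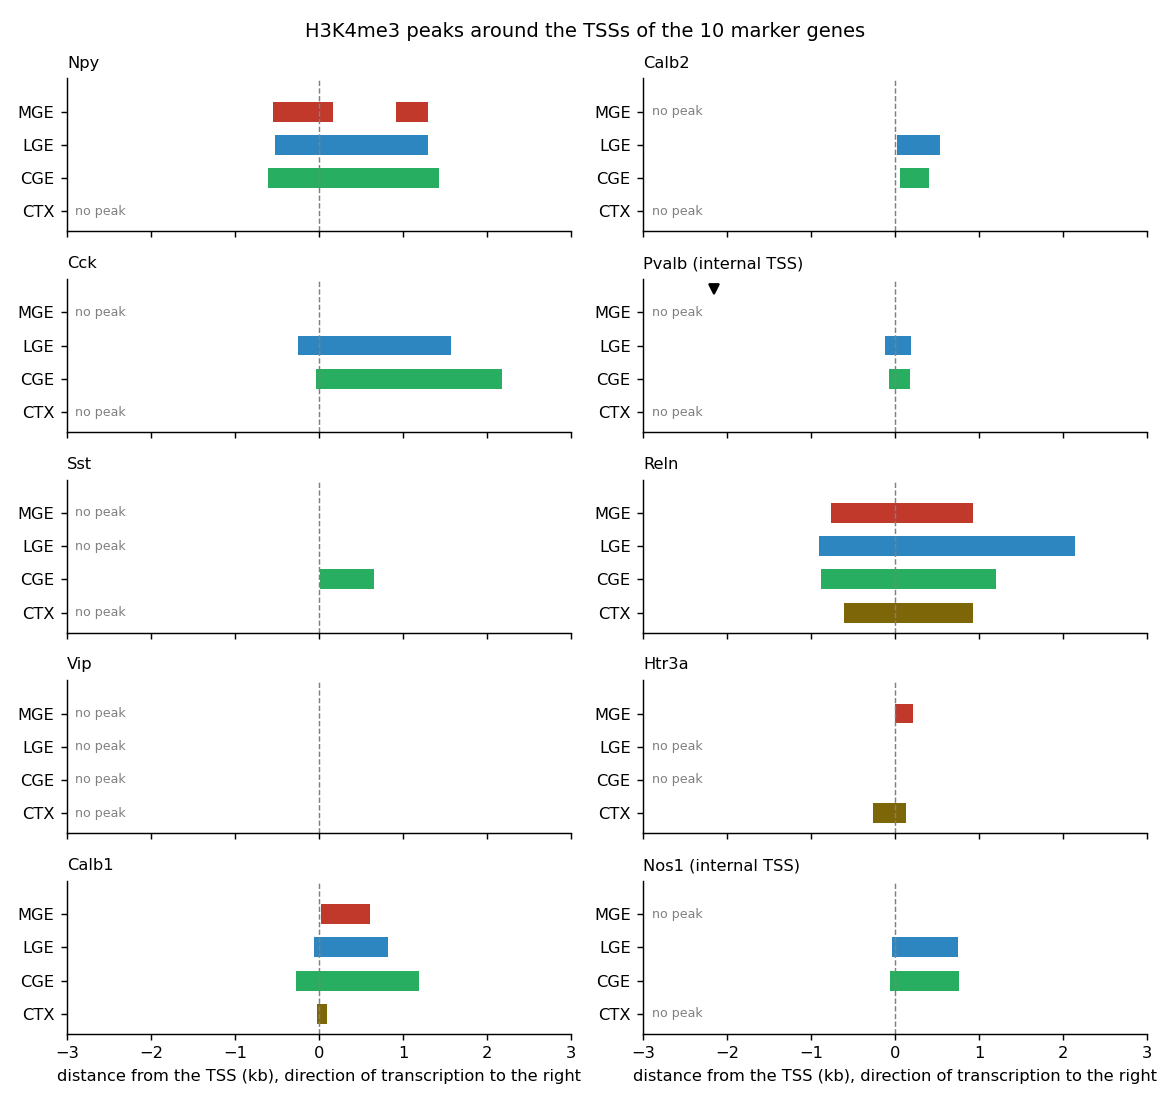
Positions of the peaks (bars) relative to the TSS (x axis, kb, transcription to the right) for the 10 genes in the MGE, LGE, CGE and CTX lists (rows). Zero is the gene 5′ end except for Pvalb and Nos1, where it is the internal TSS under the peaks, and the triangle marks the 5′ end of Pvalb 2.16 kb upstream. The peaks of Calb2 and Sst begin inside the gene.

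Reln encodes reelin, a secreted matrix protein that guides neuronal layering, and lies at chr5:21884454-22344702 on the minus strand. It had 1699 (MGE), 3056 (LGE), 2091 (CGE) and 1542 (CTX) covered bases. The percentiles were 89.4 (MGE), 96.2 (LGE), 85.3 (CGE) and 85.1 (CTX). Reln was the most covered of the 10 genes in MGE, LGE and CTX, and Cck exceeded it in CGE. The CTX peak (chr5:22343773-22345314) lay wholly within those of the other 3 regions, and the LGE peak (chr5:22342557-22345612) was at percentile 98.2 of widths in its list. In the fixed list of 10 Cajal-Retzius markers, which includes Reln and Calb2, the number marked was 9 (MGE), 10 (LGE), 10 (CGE) and 9 (CTX). Their summed covered bases were 7777 (MGE), 23608 (LGE), 31162 (CGE) and 8152 (CTX), the most covered genes were Ndnf, Ebf2, Lhx5 and Ndnf in that order of regions, and Calb2 was the gene at 0 in MGE and CTX. Of all protein-coding genes, 63.8% to 65.0% were marked in each list. Their median covered bases were 717 (MGE), 1036 (LGE), 1126 (CGE) and 733 (CTX). The summed coverage of the Cajal-Retzius list was higher in LGE and CGE, as were the coverage of Calb2 and these medians. By rank within each list, the median percentile of the Cajal-Retzius markers was 50.4 (MGE), 88.8 (LGE), 95.7 (CGE) and 48.5 (CTX). Reln itself ranked higher in MGE than in CGE. The part of Cajal-Retzius cells in the Reln and Calb2 values was not tested. In bulk tissue, fewer cells that carry the mark and less mark per cell cannot be told apart.

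Htr3a encodes the serotonin 3A receptor subunit, an ion channel of CGE-derived interneurons, and lies at chr9:48899213-48911099 on the minus strand. It had 213 covered bases in MGE (percentile 37.1), 396 in CTX (percentile 40.3) and 0 in LGE and CGE. The nearest peaks in LGE and CGE were 73.7 kb away. Htr3a was thus marked in 2 of the 3 regions other than its usual source, by narrow peaks that shared 126 bases (59.2% of the MGE and 31.8% of the CTX peak). The MGE peak (chr9:48910885-48911097) was of low rank, with a −log10 q of 1.07, at percentile 8.2 of its list, while the CTX peak (chr9:48910972-48911367) was at percentile 36.5. The MGE call was lost at a −log10 q of at least 2, with lists of equal length and at the common minimum width. It was also lost with a peak over a curated RefSeq start. Presence in MGE and CTX alone was found for 89 protein-coding genes.

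Nos1 encodes neuronal nitric oxide synthase, an enzyme of long-range projecting and neurogliaform interneurons, and lies at chr5:117781032-117958840 on the plus strand with 7 annotated TSSs. It had 781 covered bases in LGE (percentile 41.0), 820 in CGE (percentile 39.9) and 0 in MGE and CTX. The LGE peak (chr5:117841813-117842593) lay wholly within the CGE peak (chr5:117841788-117842607). Both covered an internal TSS at position 117841850, 60.8 kb from the gene 5′ end, so that no list held a peak at the Nos1 5′ end. The start of the curated RefSeq transcript of Nos1 lies at position 117866839, and no list held a peak within 5 kb of it, so the marks of Nos1 rest on the GENCODE internal TSS. The nearest peaks to any Nos1 TSS were 13.8 kb away in MGE and 22.6 kb in CTX. Outside the 5 kb windows, 1 peak of the MGE list touched the Nos1 gene, over 139 of its bases.

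The markers were also grouped by the region in which their interneurons usually arise, and their counts stand beside the 63.8% to 65.0% of protein-coding genes marked in each list. Of the 4 genes of MGE-derived classes (Sst, Pvalb, Calb1 and Nos1), the number marked was 1 (MGE), 3 (LGE), 4 (CGE) and 1 (CTX). Of the 4 genes of CGE-derived classes (Vip, Htr3a, Calb2 and Cck), the number marked was 1 (MGE), 2 (LGE), 2 (CGE) and 1 (CTX). Npy and Reln, found in cells of either source, were both marked in MGE, LGE and CGE. The CGE list marked at least as many genes as the MGE list in each of these groups. Each group holds at most 4 genes and each region 1 list, so the counts are a description.

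The peaks at the 10 genes were weak within their lists. There were 23 peaks in all, 122 to 3056 bp wide, of which 18 lay over a TSS, and all 23 were nearest to the TSS of the marker itself among protein-coding genes. All 23 had a −log10 q below the median of their own list, at percentiles from 4.84 (Pvalb in LGE) to 44.5 (Npy in MGE). The fold enrichment was below the list median for 20 of the 23, and the width for 12. Among all protein-coding genes with a peak, the strongest peak fell below the list median for 16.4% (MGE), 30.5% (LGE), 29.3% (CGE) and 20.9% (CTX). Low ranks were frequent in some other lists of genes and not in all. Among marked genes of a list of 30 other interneuron markers the strongest peak was below the list median for 58.3% (MGE), 83.3% (LGE), 75.0% (CGE) and 66.7% (CTX), and among 11 markers of cortical glutamatergic cells for 81.8%, 90.9%, 100.0% and 45.5% in the same order. Among the marked genes of 22 interneuron lineage factors the shares were 9.52%, 81.8%, 59.1% and 44.4%. The marks at Reln and Cck were broad without ranking high in significance. The Cck peak in LGE was 1819 bp wide but at percentile 11.8 of −log10 q.

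Each marker peak was then set beside the peaks of the same list that lay near a protein-coding TSS and had a −log10 q within 20% of its own. Of 747 such peaks like that of Cck in CGE, 97.9% overlapped a peak in MGE and 93.0% a peak in CTX, whereas the Cck peak overlapped neither. For Nos1 in CGE the shares were 88.1% in MGE and 81.8% in CTX, over 445 peaks. The Cck and Nos1 peaks of CGE thus lacked a counterpart that most peaks of like rank had. For Pvalb in CGE the shares were 48.9% in MGE and 39.0% in CTX, over 333 peaks, and for Calb2 in CGE 61.4% and 51.3%, over 339 peaks. For Sst in CGE they were 69.0% in MGE, 79.2% in LGE and 61.3% in CTX, over 390 peaks. Among the CGE peaks, those of the rank of Pvalb, Calb2 and Sst thus lacked a counterpart more often than those of the rank of Cck and Nos1. In LGE the shares for Pvalb were the lowest of these 4 genes, at 47.0% in MGE and 43.2% in CTX. Those for Calb2 in LGE, 70.7% and 65.1%, were between those for Cck (67.2% and 63.9%) and Nos1 (72.4% and 65.7%). For Npy in CGE, 85.1% of like peaks overlapped a peak in CTX. Of 1091 peaks like that of Htr3a in CTX, 83.2% overlapped a peak in LGE and 85.2% a peak in CGE, whereas for the 705 peaks like that of Htr3a in MGE these shares were 19.3% and 21.8%. The part of depth in the differences between lists was not tested.

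**Figure D3:**
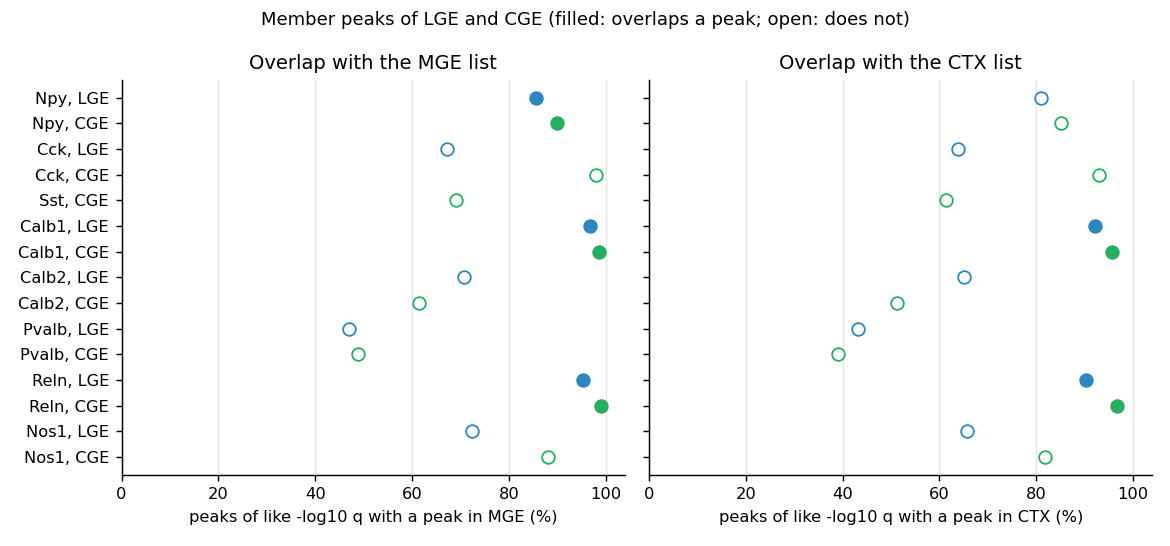
Share of peaks of the same list with a −log10 q within 20% of the marker's peak that overlap a peak in MGE (left) or CTX (right) (x axis, %), for each marker peak of LGE and CGE (rows). Filled points are marker peaks that overlap a peak there and open points those that do not, and the open point of Cck in CGE stands at 97.9% for MGE.

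CpG content, measured from 500 bases before to 500 bases after the gene 5′ end, varied across the 10 genes. The ratio of observed to expected CpG was highest at Reln (1.012, percentile 98.6 of 21938 protein-coding genes) and lowest at Pvalb (0.157, percentile 16.8). Across all protein-coding genes the median was 0.552, and the share marked rose with this ratio. In the lowest quintile the marked share was 14.4% (MGE), 11.6% (LGE), 12.3% (CGE) and 12.9% (CTX), and in the highest quintile it was 96.4%, 96.7%, 97.0% and 96.2% in the same order. Reln, in the highest quintile, and Calb1 (0.698), in the next, were the genes marked in all 4 lists. Vip (0.287), Cck (0.26) and Nos1 (0.224) lay in the next to lowest quintile, where 33.8% of genes were marked in LGE and 34.3% in CGE, and Pvalb and Htr3a (0.17) in the lowest. The marked internal TSSs had higher ratios than the 5′ ends of the same genes, 0.516 against 0.157 at Pvalb and 0.603 against 0.224 at Nos1. Sst (0.577), Npy (0.626) and Calb2 (0.526) lay in the middle quintile, where 82.6% of genes were marked in MGE and 81.1% in CTX. Of these 3 genes only Npy was marked in MGE and none in CTX. In LGE, where 83.9% of the quintile was marked, Npy and Calb2 were marked, and in CGE, where 84.1% was, all 3 were.

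**Figure D4:**
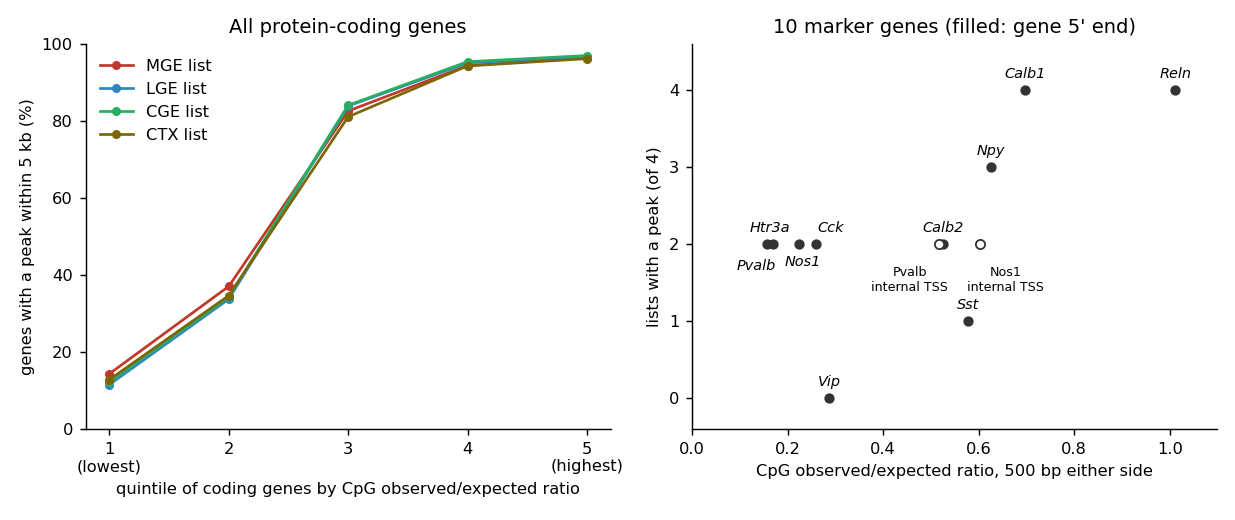
Left, share of protein-coding genes with a peak within 5 kb (y axis, %) by quintile of the CpG observed/expected ratio (x axis) in the 4 lists (lines). Right, the number of lists with a peak (y axis) against that ratio (x axis) for the 10 marker genes, with filled points for the gene 5′ end and open points for the marked internal TSSs of Pvalb and Nos1. Reln and Calb1 have the highest ratios and are marked in 4 lists.

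A set of 5 motifs was searched on both strands from 250 bases before to 50 bases after each gene 5′ end. The marked internal TSSs of Pvalb and Nos1 and the curated RefSeq start of Sst were searched in the same way. The GC box letters GGGCGG, found in 43.0% of promoters, occurred 6 times at Reln and 1 time each at Npy, Calb2, Htr3a and the Nos1 5′ end. TATAAA stood 32 to 27 bases before the Calb2 5′ end. The CCAAT letters (39.0% of promoters) were found at Npy and at the internal TSS of Nos1, and TAATTA (5.3%), a core of homeodomain sites, at the Sst 5′ end. None of the 5 was found at Pvalb, Calb1 or Cck, which says only that these letters are absent from the windows searched.

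The 10 genes were set beside 30 other markers of interneuron subtypes from a fixed list. Each GE list marked 24 of these 30 genes (80.0%) and the CTX list 21 (70.0%). The 30 were marked in MGE and CTX in larger shares than the 10, and this difference was not tested. Sncg, Slc17a8, Chrna2, Cplx3 and Myh8 had no peak in any list, like Vip. Cort, the gene of the somatostatin-related peptide cortistatin, had 179 covered bases in MGE and none elsewhere. The narrowest peaks of the LGE and CGE lists, of 243 and 242 bp, were wider than this. Lamp5, a marker of neurogliaform cells, had 484 (MGE), 1687 (LGE), 1838 (CGE) and 0 (CTX) covered bases. Tac2 and Syt6 were likewise marked in the 3 GEs and not in CTX, as Npy was. Chat, the acetylcholine-synthesising enzyme found in some Vip cells, had 0 (MGE), 2188 (LGE), 2367 (CGE) and 125 (CTX) covered bases.

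The transcription factors that specify interneurons were covered far more broadly than the subtype markers. Of 22 such factors, the number marked was 21 (MGE), 22 (LGE), 22 (CGE) and 18 (CTX). Their median percentile of covered bases was 97.4 (MGE), 98.2 (LGE), 98.1 (CGE) and 87.7 (CTX), against 17.5, 39.4, 38.9 and 18.1 for the 10 markers. The marker medians in MGE and CTX are those of unmarked genes. Nkx2-1, the factor that specifies the MGE, had 3262 (MGE), 2934 (LGE), 3804 (CGE) and 0 (CTX) covered bases. Lhx8 and Sp9 were also marked in the 3 GEs alone, and Npas1 was marked in LGE (494 bases) and CGE (940 bases), the same presence as Pvalb, Calb2, Cck and Nos1. Of 6 genes of GABA synthesis and transport all were marked in the 3 GEs, and Slc32a1, the vesicular GABA transporter, was the 1 unmarked in CTX.

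**Figure D5:**
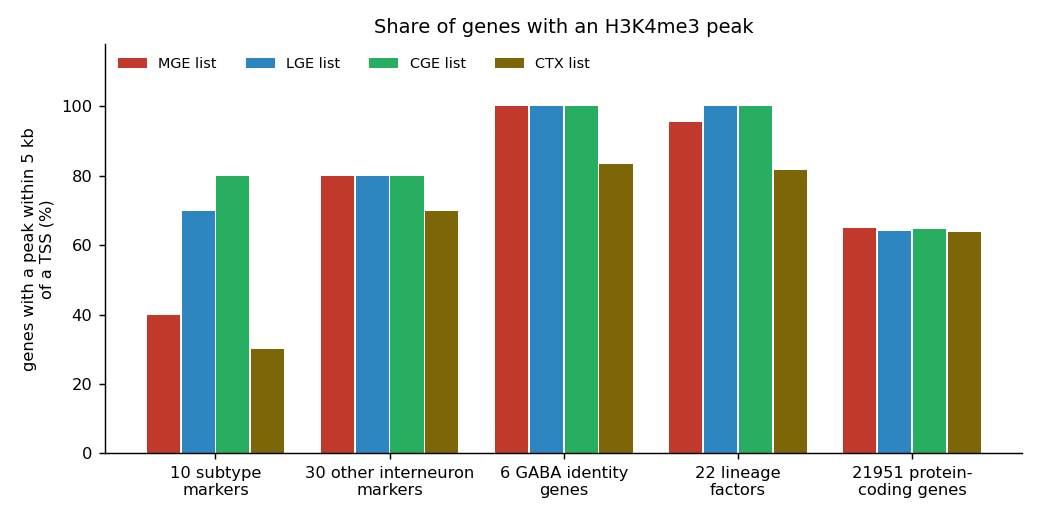
Share of genes with a peak within 5 kb of a TSS (y axis, %) in the MGE, LGE, CGE and CTX lists (bars) for the 10 subtype markers, 30 other interneuron markers, 6 genes of GABA synthesis and transport, 22 lineage factors and all 21951 protein-coding genes (x axis). The subtype markers run from 30.0% in CTX to 80.0% in CGE, while all protein-coding genes stay between 63.8% and 65.0%.

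The labels of the regions were set beside lists of cell type markers. All 11 markers of cortical glutamatergic cells were marked in every list, with median covered bases of 452 (MGE), 2323 (LGE), 2552 (CGE) and 1699 (CTX), and summed bases of 6384, 30117, 30409 and 21683. Their most covered gene was Emx2 in MGE and Pax6 in the other lists. The summed coverage of these cortical markers was higher in LGE and CGE than in MGE and also higher than in CTX itself. By rank within each list, their median percentile of covered bases was 40.9 (MGE), 91.0 (LGE), 91.5 (CGE) and 88.8 (CTX). Ranked in this way, CTX was close to LGE and CGE, and MGE was far lower. Coverage was higher in LGE and CGE for genes in general, with medians over all protein-coding genes of 717 (MGE), 1036 (LGE), 1126 (CGE) and 733 (CTX) bases. The number of subtype markers with a peak was likewise higher in LGE and CGE, and the part of glutamatergic cells in it was not tested. Of 6 microglial markers 1 (Tmem119, 249 bases in MGE) was marked in MGE and none in the other lists. Of 6 endothelial markers 4 were marked in MGE and 3 in each other list, with Cdh5 and Tek at 0 in all 4. Of 6 erythroid markers 2 were marked in each list, of 6 meningeal markers 4, 3, 4 and 5 in MGE, LGE, CGE and CTX, and of 8 muscle and liver genes 4, 3, 4 and 3.

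For each marker present in 1 to 3 lists, the 3 protein-coding genes of the same presence with the smallest summed difference in covered bases over the 4 lists were named. For Npy, among 245 genes marked in the 3 GEs alone, these were Scn3a, a sodium channel subunit (difference 304 bases), Sulf1 (407) and Syt6 (458). For Cck, among the 135 genes of LGE and CGE, they were Ucn, the peptide urocortin (346 bases), Cntn5 (426) and Col8a2 (489), and for Nos1 Pcdha12 (21 bases), Kctd16 (68) and Lefty2 (74). For Calb2 they were Gpr101 (30 bases), Ncf1 (54) and Unc13c (87), and for Pvalb Smim22 (59), Efhc2 (83) and Klk9 (102). For Sst, among 87 genes of CGE alone, they were Hoxa10 (5 bases), Rasgrp4 (8) and Cwh43 (18), and for Htr3a, among 89 genes, Ldlrad2 (20), A930017K11Rik (54) and Gnmt (74). Likeness here is of covered bases over 4 lists and nothing more.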

How the data were processed

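Peak lists of H3K4me3 CUT&Tag were used as deposited, 1 for each region. Per the paper's methods, the authors aligned paired-end reads to GRCm38/mm10 with Bowtie2, removed blacklisted reads and PCR duplicates (Picard), merged the replicates and called broad peaks with MACS. The MACS version, threshold and control are not given in the sources used here. The deposited columns hold other values (peak start and end), a score, the fold enrichment as a ratio to the caller's background, and the −log10 p and −log10 q of the authors' caller. Positions, fold and −log10 q were used, the last 2 as values or ranks within a list, and −log10 p was not used.

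Peaks within 5 kb of GENCODE M21 TSSs were counted for 55450 genes with Python 3.11.15, numpy 2.4.6 and pandas 2.3.3. Figures were drawn with matplotlib 3.10.9. Percentiles are mid-ranks of covered bases among 21951 protein-coding genes. Sequences were read from the RefSeq GRCm38.p6 genome. Of the 10 genes, 7 were matched in the RefSeq promoter table. Interval arithmetic and percentiles matched known answers on simulated data in 200 of 200 runs each.

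The members and gene lists were chosen with earlier results of these data known. Genes named were the 10 markers, genes of the fixed lists with a peak in 0 to 3 lists, and the 3 most alike genes for each marker present in 1 to 3 lists. Other genes named, chosen after their values were seen, were the most covered of a list and receptor genes marked in all 4 lists. The 15 alternatives covered the TSS window and definition, peak threshold, list length, width, joining and overlap, and 2 of them (curated RefSeq starts) were chosen after seeing the data.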

Additional observations from a re-analysis of the deposited data

How the results depend on the processing

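Of 105 counts of marked genes recomputed under 15 alternatives, 91 stayed within 1.5 times the reported count and 14 moved further. Marked in all 4 lists was 1 gene (Reln) in place of 2 with 2 kb upstream only, with a peak over the TSS itself, at a −log10 q of at least 2, with lists of equal length by fold or by −log10 q, at a common minimum width of 243 bp and with a peak over a curated RefSeq start. The threshold, length and width alternatives each removed Htr3a from MGE (3 genes) and Calb1 from CTX (2 genes), and left 7 genes in LGE and 8 in CGE. Marked in no list was 3 genes in place of 1 with 2 kb upstream only, with a peak over the TSS and with a peak over a curated RefSeq start, and 2 with the gene 5′ end only and within 5 kb of curated RefSeq starts. A peak over a curated RefSeq start left 2 genes in MGE in place of 4, 5 in LGE in place of 7, 6 in CGE in place of 8 and 2 in LGE and CGE alone in place of 4. For the 2 alternatives with curated RefSeq starts the share of all protein-coding genes was not computed, so their counts have no genome-wide share beside them. LGE fell from 7 genes to 6 and CGE from 8 to 6 with 2 kb upstream only and with a peak over the TSS, and to 6 and 7 with the gene 5′ end only and within 5 kb of curated RefSeq starts, where Nos1 was lost. Percentiles depend on the genes ranked. Among marked protein-coding genes alone Sst in CGE was at 3.88, Calb2 at 2.95 (LGE) and 1.04 (CGE), Htr3a at 3.25 (MGE) and 6.56 (CTX) and Nos1 at 8.23 (LGE) and 7.09 (CGE), and among all annotated genes Sst in CGE was at 67.1. No paired analysis was possible because each list pools its replicates, and for the same reason no replicate could be left out.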

Other observations

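Receptors and partners of the marker proteins were examined as a list of 17 genes. The number marked was 13 (MGE, 76.5%), 14 (LGE, 82.4%), 15 (CGE, 88.2%) and 15 (CTX, 88.2%), beside 65.0%, 64.2%, 64.6% and 63.8% of all protein-coding genes. Of the 17, 12 were marked in all 4 lists, as were 61.3% of protein-coding genes. The reelin receptors Lrp8 and Vldlr and the adaptor Dab1, which relays their signal, were marked in all 4 lists, as was Reln. Of the 5 somatostatin receptor genes, Sstr1, Sstr2 and Sstr4 were marked in all 4 lists, Sstr5 had 317 (MGE), 460 (LGE), 558 (CGE) and 0 (CTX) covered bases, and Sstr3 had 10 covered bases in CTX and none elsewhere. No CTX peak was narrower than 122 bp, so the Sstr3 peak lay mostly outside the 5 kb window. It is still counted among the 15 of CTX. The receptors of vasoactive intestinal peptide, Vipr1 and Vipr2, were marked in all 4 lists, whereas Vip was in none. Npy1r, a neuropeptide Y receptor, had 0 (MGE), 1130 (LGE), 1490 (CGE) and 217 (CTX) covered bases. Cckar, a cholecystokinin receptor, had 742 covered bases in CGE, 560 in CTX and 0 in MGE and LGE. Htr3b, the partner subunit of Htr3a, had no peak in any list.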
